A study of Mus musculus with 4 samples.

Results

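Cytochrome c oxidase, or complex IV, is the last enzyme of the mitochondrial respiratory chain, and 5 of its nuclear-encoded subunits exist in mouse as a ubiquitous form and a tissue-restricted form made from separate genes. The 10 genes of these 5 pairs were followed in RNA-seq of rOvaries, the reconstituted ovaries that grow from transplanted germ cells. They were taken by name, with earlier results of these data known, and are 10 of the 54021 gene symbols in the table. The pairs were Cox4i1 with Cox4i2, Cox6a1 with Cox6a2, Cox6b1 with Cox6b2, Cox7a2 with Cox7a1, and Cox8a with Cox8b, the ubiquitous form named first in each.

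Each rOvary came from primordial germ cells of actin-GFP donor mice aggregated with somatic cells of fetal gonads. Aggregates were placed under the kidney capsule of bilaterally ovariectomized G2 Terc-/- recipients, which lack the telomerase RNA component and were 10 weeks old. Groups of 2 rOvaries each were compared, 4 weeks after transplantation. The INK128 group (replicates 1 and 2) received INK128, an inhibitor of the mTOR kinase, in drinking water at 0.75 µM per g according to the labels (the study's methods state the dose differently), and the Control group (replicates 1 and 3) did not. All recipients carried the Terc deletion, no wild-type recipient was included here, and the donor cells brought their own genotype.

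The table held 19130209 to 23029089 counts per library. All levels below are read counts relative to the TMM-scaled size of their library (CPM), and with 2 libraries per group each mean is given ± SD. Filters on mean CPM, and counts of genes with a mean below 1, used the unscaled library totals. The INK128 rOvaries resembled each other more (Pearson's r of log2 CPM across genes 0.98) than the Control rOvaries did (0.806). Control replicate 1 stood apart. It held 1021 counts of 4 Y-linked genes, against at most 2 in any other library, and its 12 markers of Sertoli cells summed to 9067 CPM against 1194 to 1538 in the others. Control replicate 3 had oocyte markers summing to 69.8 CPM against 990 to 1432 elsewhere. Of 19 tested kidney tubule markers, 19 had both Control libraries above both INK128 libraries, an order that 34% of all genes showed, and 8 were called lower with INK128 (3.19% of all genes). Of these 8, 6 had a mean CPM above 10 only through the Control libraries. Of 9 tested immune markers 8 were lower in both INK128 libraries and 1, Cd74, was called. The 11 steroidogenic and luteal markers summed to 1129 CPM in Control replicate 1, 13664 in Control replicate 3, and 4798 and 6101 with INK128. In tissue of mixed cells, fewer cells of a type and less RNA per cell cannot be told apart. The labels do not say whether replicates came from separate recipients, so p-values measure the spread between these libraries.

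As background, the ubiquitous forms are used in most tissues, and the second forms are known from particular ones. COX4I2 is abundant in lung and in smooth muscle and pericytes, COX6A2, COX7A1 and COX8B in heart, skeletal muscle and brown fat, and COX6B2 in testis. The subunits surround the catalytic core made by mitochondrial DNA and tune its activity, assembly and dimerisation. Subunit 4 carries a site where ATP slows the enzyme, subunits 6a and 6b lie at the contact of the dimer, and subunits 7a and 8 are small single-pass membrane proteins.

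Promoter sequence was at hand for 7 of the 10 genes (RefSeq, build GRCm38.p6), taken from 250 bases before to 30 bases after the annotated start. The 6b and 8 pairs are shown because their isoform ratios were the ones in which the tissue-restricted form was higher with INK128 in both libraries. Each sequence runs 5′ to 3′ along the gene's strand, and capitals mark matches to any of 7 motifs on either strand.
Cox8a, chr19:7217587-7217866, strand -: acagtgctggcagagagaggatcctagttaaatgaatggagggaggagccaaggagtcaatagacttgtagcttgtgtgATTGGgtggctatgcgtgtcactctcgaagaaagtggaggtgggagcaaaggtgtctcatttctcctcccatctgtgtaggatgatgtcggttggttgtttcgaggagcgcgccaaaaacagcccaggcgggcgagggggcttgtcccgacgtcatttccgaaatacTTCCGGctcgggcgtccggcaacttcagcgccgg
Cox8b, chr7:140900417-140900696, strand -: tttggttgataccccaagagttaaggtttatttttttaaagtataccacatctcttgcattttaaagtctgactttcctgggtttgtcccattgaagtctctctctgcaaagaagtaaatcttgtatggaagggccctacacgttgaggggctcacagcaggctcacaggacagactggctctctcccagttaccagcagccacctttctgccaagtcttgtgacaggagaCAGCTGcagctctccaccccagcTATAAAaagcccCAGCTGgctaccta
Cox6b1, chr7:30626085-30626364, strand -: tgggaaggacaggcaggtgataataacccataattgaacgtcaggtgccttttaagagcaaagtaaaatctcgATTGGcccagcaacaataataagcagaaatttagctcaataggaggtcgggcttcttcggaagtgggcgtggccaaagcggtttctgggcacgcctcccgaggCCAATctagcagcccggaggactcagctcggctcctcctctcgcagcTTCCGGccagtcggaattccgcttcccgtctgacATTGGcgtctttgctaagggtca
Cox6b2, chr7:4753065-4753344, strand -: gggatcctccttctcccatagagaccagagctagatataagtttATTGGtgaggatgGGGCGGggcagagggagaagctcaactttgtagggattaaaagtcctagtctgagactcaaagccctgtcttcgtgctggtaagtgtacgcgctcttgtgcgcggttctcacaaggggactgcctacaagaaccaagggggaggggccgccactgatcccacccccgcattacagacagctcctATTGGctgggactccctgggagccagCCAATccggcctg

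The first motif was CCGGAA, the core of sites for ETS family factors such as GABP. For the factor NRF1 it was GCATGCG. The GC box was searched as GGGCGG, and the CCAAT box by the letters of its name. The TATA box was searched as TATAAA. The E-box bound by myogenic factors was searched as CAGCTG. The core of MEF2 sites has CTA at its beginning, then any 4 bases, and ends with TAG. The ETS core, printed as TTCCGG where it lay on the other strand, was found in the 4 ubiquitous genes with a sequence, Cox6a1, Cox6b1, Cox7a2 and Cox8a. It was found in none of the 3 tissue-restricted ones, Cox6b2, Cox7a1 and Cox8b. Among 32851 promoters of the same length, 14.2% held it. Cox8b was the only one of the 7 with TATAAA, at positions 5 to 10 from the start, and the only one with CAGCTG, at positions -19 to -14 and 17 to 22. Those motifs stood in 13.1% and 14.9% of all promoters. Cox6b2 held a GC box (34.7% of promoters) and 3 CCAAT boxes, a motif present in 36.1%, and Cox6b1 also held 3 CCAAT boxes. Cox6a1 was the only one with GCATGCG (3.42% of promoters), as 2 overlapping matches of a near-palindrome, and the MEF2 core (3.5% of promoters) was in none of the 7. These matches describe letters and were not tested as sites.

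The ubiquitous form gave most of the reads of every pair in these grafts, and the share from the tissue-restricted form ran from 0.101% (Cox6a2) to 16.1% (Cox6b2) over the pairs and libraries. Per kilobase of exon, which allows different genes to be compared, Cox6a1 was highest in both groups, at 636 ± 58.8 CPM per kb with INK128 and 335 ± 44.1 in controls (SD, n = 2). The 5 ubiquitous genes took the first 5 places in both groups, down to Cox7a2 at 127 ± 16.0 and 64.8 ± 6.21. In the INK128 group Cox4i1 came next and then Cox8a, and in the Control group these changed places. Cox6b2 was the highest tissue-restricted gene, at 27.6 ± 5.08 and 7.81 ± 0.0146 CPM per kb. It was followed by Cox4i2, whose range overlapped that of the next gene in both groups (Cox8b with INK128, Cox7a1 in controls). In controls Cox8b and Cox6a2, the lowest 2, also overlapped, and no other neighbours in either order did. Counting only the median length of coding transcripts put Cox4i1 first (659 CPM per kb over the 4 libraries) and Cox6a1 second (597), where the union of exons gave 317 and 485.

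**Figure D1:**
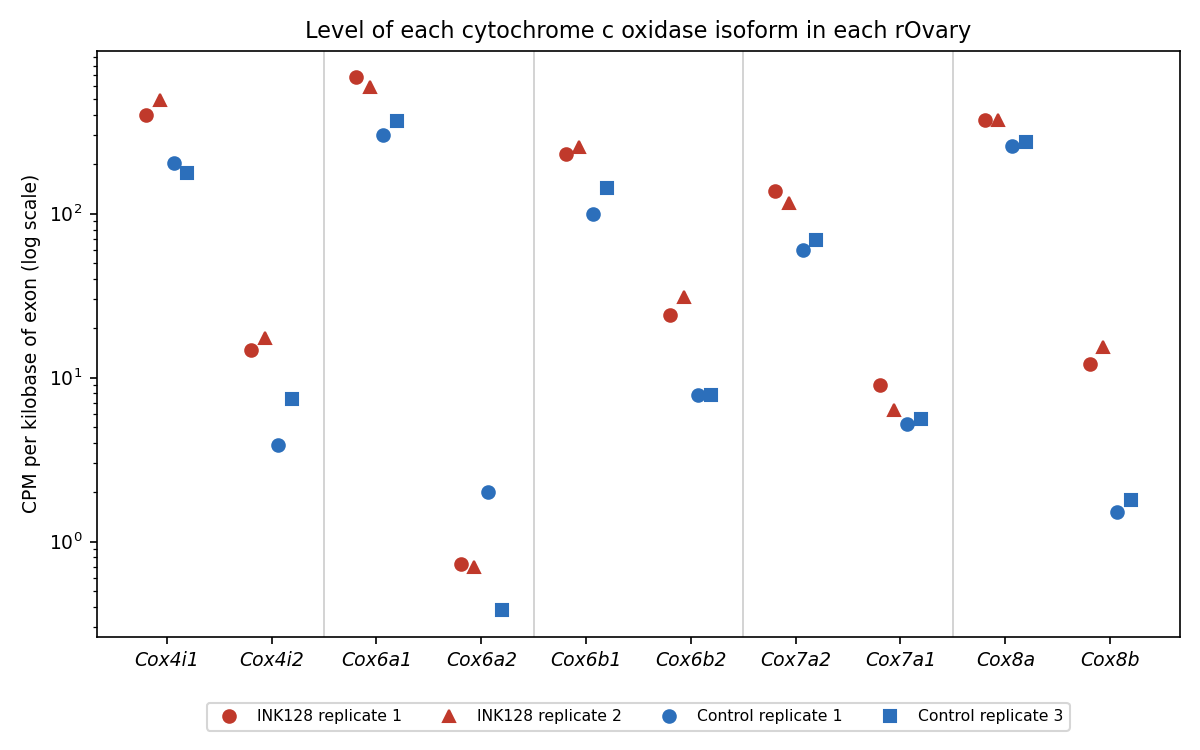
CPM per kilobase of exon on a log axis for the 10 isoform genes, each point 1 rOvary (red, INK128; blue, Control), with pairs separated by lines and the ubiquitous gene first. Every gene except Cox6a2 has both red points above both blue ones, and the tissue-restricted genes lie below the ubiquitous ones, between 0.382 and 31.2 CPM per kb.

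With INK128, 9 of the 10 genes were higher in both INK128 libraries than in both Control libraries. All 9 had a mean CPM above 1, and among the 17631 genes of that level 30.9% showed the same order. Cox8b reached a mean CPM above 1 only through its INK128 libraries. In the main comparison, edgeR's quasi-likelihood test of 11758 genes whose mean CPM exceeded 10, a call needed an adjusted p under 0.05 and a change of more than 1.5-fold. Of the 6 isoform genes above that level 2 were called higher, Cox4i1 and Cox6b2, and 0 lower, while 3.18% of all genes were called higher and 3.19% lower. DESeq2 called 5 of the 6 higher, all but Cox8a, against 13.6% of all genes, and 15.1% of all genes were called lower. Cox6b2 passed the level only through its INK128 libraries. The median log2 fold change of the 6 was 0.99, and that of all genes -0.03. Cox4i2, Cox7a1 and Cox8b lay between mean CPM 1 and 10, and were tested by edgeR over the 17631 genes above 1. That wider fit called 0 genes, although without adjustment 2664 were higher and 3133 lower at p under 0.05, and DESeq2 called 1791 higher and 2402 lower on the same genes. Cox6a2 was too low for either fit.

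Cox4i1 (chromosome 8, 120668222 to 120674207, plus strand, mm10), the common form of the regulatory subunit 4, stood at 618 and 761 CPM in the INK128 rOvaries and at 314 and 273 CPM in the controls. The groups did not overlap, and both controls lay far below the lower INK128 library. Its log2 fold change was 1.23 ± 0.21 (SE; adjusted p = 0.0486, edgeR), and without Control replicate 1 it was 1.34. The call was lost with limma voom (adjusted p = 0.0599), in edgeR's wider fit (0.0558), without INK128 replicate 1 (0.381) or 2 (0.438), and with an offset for exon length (log2 fold change 0.60, adjusted p = 0.142). Some 154 bases, 9.94% of its exon length, overlap exons of Emc8 on the opposite strand, and reads there cannot be told apart unless strand was used in counting.

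Cox4i2 (chromosome 2, 152754173 to 152765037, plus strand), the form known for less inhibition of the enzyme by ATP and for a role in oxygen sensing, stood at 11.6 and 13.7 CPM with INK128 and at 3.05 and 5.85 CPM in controls. Both INK128 libraries were above both controls, and the controls themselves differed by more than the INK128 libraries. Its log2 fold change of 1.56 ± 0.44 did not pass the threshold (adjusted p = 0.0923, edgeR), while DESeq2 called it (1.55, adjusted p = 0.0241). Without Control replicate 1 the log2 fold change was 1.17 and without Control replicate 3 it was 2.11. Without INK128 replicate 1 it was 1.67, and without INK128 replicate 2 it was 1.43. With an offset for exon length it was 1.15 (adjusted p = 0.188, edgeR).

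Within the subunit 4 pair, Cox4i2 held 1.85% and 1.77% of the reads in the INK128 rOvaries, and 0.962% and 2.10% in Control replicates 1 and 3. The 95% exact binomial interval was 0.747% to 1.22% in the first control and 1.76% to 2.48% in the second, covering counting error only. The INK128 libraries lay between the controls. The log2 ratio of Cox4i2 to Cox4i1 (with 0.5 counts added to each) differed by 0.35 ± 0.57 (SE) between groups, an exact two-sided permutation p of 1. It turned to -0.22 without Control replicate 1 and was 0.91 without Control replicate 3. The difference was smaller than the gap of 1.14 between the controls themselves.

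Smooth muscle and pericyte markers were checked beside Cox4i2. The 15 listed markers, led by Acta2 and Tagln, summed to 5714 and 5817 CPM with INK128, and to 989 and 2240 CPM in controls. Acta2 alone was at 2628 and 2451 CPM with INK128 and at 316 and 629 CPM in controls. Tagln was at 1471 and 1569 CPM with INK128 and at 162 and 437 CPM in controls. Of 14 tested, 2 were called higher (3.18% over all genes), the contractile genes Acta2 (log2 fold change 2.43 ± 0.39, adjusted p = 0.0464, edgeR) and Cnn1 (2.38 ± 0.37, adjusted p = 0.0464, edgeR). Across the 14 tested, the median was 0.70 on the log2 scale. Of the 14, 8 had both INK128 libraries above both controls, an order that 34.5% of all genes showed, and 0 had both below. The log2 fold change was positive in 12 of the 14. The groups overlapped for Rgs5 (0.09 ± 0.63), Pdgfrb (0.14 ± 0.59), Abcc9 (-0.40 ± 0.83) and Notch3 (-0.88 ± 0.68). The part of these cells in the level of Cox4i2 was not tested. The genes whose profile over the 4 libraries was nearest to that of Cox4i2 were Arhgef25, Tpm1 and Fndc4, at distances of 0.06, 0.10 and 0.11 between centred log2 CPM. For these distances 0.5 CPM was added to every value, which narrows the changes of genes near or below that level. Cox4i1 was 1116th of 17630 genes by the same measure, at 0.78.

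Cox6a1 (chromosome 5, 115345642 to 115348981, minus strand), the common form of subunit 6a, stood at 476 and 417 CPM with INK128 and at 213 and 257 CPM in controls. The groups did not overlap, yet the log2 fold change of 0.93 ± 0.20 missed the threshold (adjusted p = 0.0569, edgeR). With an offset for exon length it was 0.15 (adjusted p = 0.685, edgeR). A processed pseudogene, AC148174.2, matches 496 bases of its transcript at 92.7% identity, so reads could be shared with it.

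Cox6a2 (chromosome 7, 128205435 to 128206387, minus strand), the heart and skeletal muscle form, had 9 and 10 counts with INK128 and 30 and 6 counts in Control replicates 1 and 3. In all, 3 of the 4 libraries thus held about the same few reads, and Control replicate 1 held most. It made up 0.104% and 0.113% of the reads of its pair with INK128, and 0.636% and 0.101% in controls. The intervals of the 3 low libraries overlapped, running from 0.0371% to 0.22%, while that of Control replicate 1 ran from 0.43% to 0.907%. The difference in log2 ratio was -1.22 ± 1.29 (exact permutation p = 1). It was 0.06 without Control replicate 1 and -2.51 without Control replicate 3. No difference between INK128 and the other control was detectable at this depth.

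Cox6b1 (chromosome 7, 30616861 to 30626151, minus strand), the common form of the subunit at the dimer contact on the intermembrane side, stood at 163 and 180 CPM with INK128 and at 70.0 and 102 CPM in controls. The groups did not overlap, and the log2 fold change of 0.999 ± 0.24 missed the threshold (adjusted p = 0.0666, edgeR). It was 0.22 with an offset for exon length (adjusted p = 0.628, edgeR).

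Cox6b2 (chromosome 7, 4751792 to 4753094, minus strand), known as the testis form of this subunit, stood at 26.6 and 34.5 CPM with INK128 and at 8.64 and 8.66 CPM in controls. Both INK128 libraries were 3-fold or more above both controls, which were nearly equal to each other. The log2 fold change was 1.82 ± 0.27 (adjusted p = 0.0464, edgeR), and it was 1.82 again without Control replicate 1. The call was lost with limma voom (adjusted p = 0.0602), in edgeR's wider fit (0.0555), without INK128 replicate 1 (0.381) or 2 (0.438), and with an offset for exon length (log2 fold change 1.09, adjusted p = 0.102).

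In the subunit 6b pair the share of reads from Cox6b2 was 14.0% and 16.1% with INK128, and 11.0% and 7.82% in controls. Counting intervals of the INK128 libraries began at 12.8% and 15.0%, and those of the controls ended at 12.6% and 8.93%. The log2 ratio of Cox6b2 to Cox6b1 was higher by 0.78 ± 0.29 (SE), or 1.72-fold, and the groups did not overlap. With 2 libraries against 2 the exact two-sided permutation test cannot go below p = 0.333, the value found here, and 0.556 after adjustment over the 5 pairs. The difference was 1.05 without Control replicate 1 and 0.51 without Control replicate 3.

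Most spermatid markers were close to absent where this testis form was read. Of 11, 9 had a mean CPM below 1, and Tnp1 and Pgk2 were at 0 in all 4 libraries. The protamines Prm1 and Prm2 had at most 3 and 9 counts. The 11 summed to 6.07 and 8.65 CPM with INK128 and to 7.41 and 6.45 CPM in controls, so the groups overlapped. Gapdhs was the highest of them, at 4.08 and 7.09 CPM with INK128 and at 3.23 and 4.81 CPM in controls. The oocyte markers summed to 1432 and 1087 CPM with INK128 and to 990 and 69.8 CPM in controls, and their part in the level of Cox6b2 was not tested. Nearest in profile to Cox6b2 were Acp4, Gm3235 and Zfp580, at distances of 0.11, 0.11 and 0.12, and Cox6b1 was 1056th at 0.84. Gm3235 was at 0.273 and 0.217 CPM in controls, below the 0.5 CPM added for these distances. Its fitted log2 fold change was 3.11, against 1.87 for Cox6b2 in the same wider fit.

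Cox7a2 (chromosome 9, 79755361 to 79759878, minus strand), the common form of subunit 7a, stood at 131 and 109 CPM with INK128 and at 57.0 and 65.3 CPM in controls. The groups did not overlap, and the log2 fold change of 0.97 ± 0.19 lay just outside the threshold (adjusted p = 0.0516, edgeR). It was 0.22 when exon length was offset (adjusted p = 0.534, edgeR).

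Cox7a1 (chromosome 7, 30184144 to 30186078, plus strand), the heart and muscle form also used as a marker of brown fat, stood at 4.85 and 3.40 CPM with INK128 and at 2.77 and 2.99 CPM in controls. The groups were ordered but close, and the log2 fold change of 0.57 ± 0.45 did not pass (adjusted p = 0.416, edgeR). Cox7a1 and Cox8a were the isoform genes with the smallest fold changes of the 9.

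The subunit 7a pair was the one whose ratio went the other way without overlap. Cox7a1 gave 3.58% and 3.02% of the reads of the pair with INK128, and 4.64% and 4.38% in controls. The log2 ratio was lower by 0.47 ± 0.13 (0.72-fold; exact permutation p = 0.333, the smallest possible, adjusted p = 0.556). The difference was -0.43 without Control replicate 1. Counting intervals of single libraries overlapped between the groups, since that of INK128 replicate 1 ended at 4.40% and that of Control replicate 3 began at 3.42%. Nearest in profile to Cox7a1 were Psmd6, Gm36423 and Gm49323, at distances of 0.06, 0.06 and 0.07, and Cox7a2 was 3103rd at 0.55.

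Cox8a (chromosome 19, 7215153 to 7217616, minus strand), the common form of the smallest subunit, stood at 231 and 230 CPM with INK128 and at 159 and 169 CPM in controls. Replicates agreed closely, but the change was small, with a log2 fold change of 0.49 ± 0.17 that did not pass (adjusted p = 0.112, edgeR). Its direction turned with an offset for exon length, to -0.29 (adjusted p = 0.342, edgeR).

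Cox8b (chromosome 7, 140898945 to 140900446, minus strand), the heart, muscle and brown fat form, had 79 and 117 counts with INK128 and 12 and 15 counts in controls. This was 4.36 and 5.53 CPM against 0.546 and 0.65 CPM, where 3 counts corresponded to 0.13 to 0.165 CPM. Both controls were below a mean CPM of 1, so the gene entered the wider fit only through its INK128 libraries. Its log2 fold change was 3.09 ± 0.52, the largest of the 9, with an adjusted p of 0.0558 in edgeR, which lay just outside the threshold. DESeq2 on the same genes gave 3.09 with an adjusted p of 0.000446. Without Control replicate 1 the edgeR value was 2.97.

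The subunit 8 pair showed the largest difference in isoform ratio. Cox8b gave 1.85% and 2.35% of the reads of the pair with INK128, and 0.341% and 0.384% in controls. The lowest bound of the INK128 intervals was 1.47% and the highest of the controls 0.632%, so they did not overlap. On the log2 scale the ratio was higher by 2.50 ± 0.19 (5.68-fold; exact permutation p = 0.333, the smallest possible, adjusted p = 0.556). Leaving out each library in turn gave 2.33 to 2.68. Per kilobase of exon Cox8a was still 30.9 and 24.2 times as abundant as Cox8b with INK128, and 170 and 151 times in controls. The change in ratio therefore concerned a minor form, and the summed level of the pair was 386 and 387 CPM per kb with INK128 against 259 and 274 in controls.

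**Figure D2:**
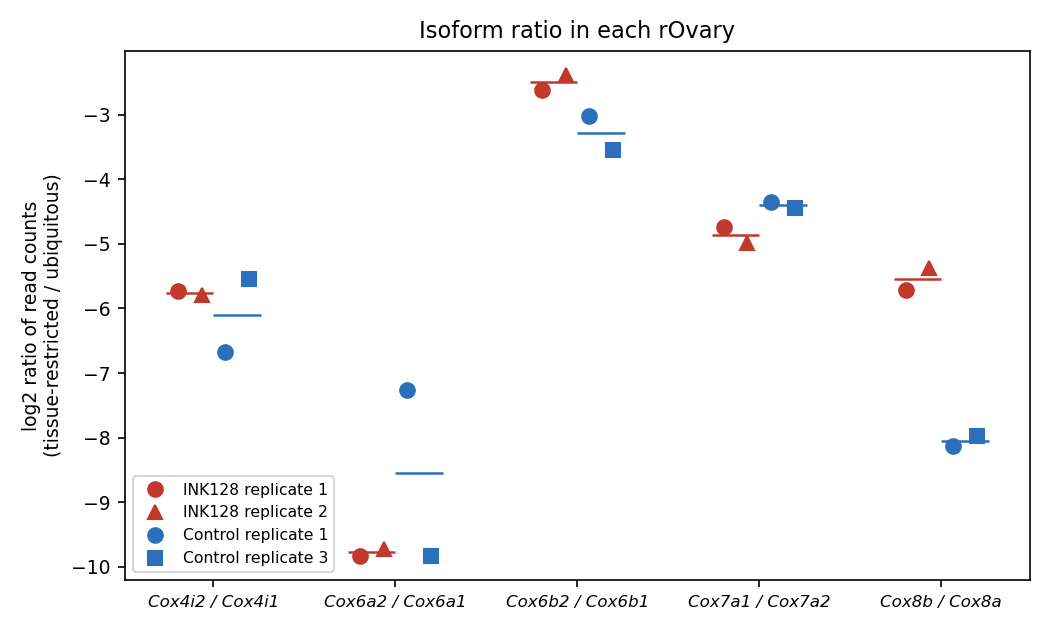
Log2 ratio of read counts of the tissue-restricted to the ubiquitous gene in each rOvary (0.5 counts added to each), with the group mean as a line. Cox8b to Cox8a and Cox6b2 to Cox6b1 are higher in both INK128 libraries, by 2.50 and 0.78, Cox7a1 to Cox7a2 is lower by 0.47, and the groups overlap for the other 2 pairs, where Control replicate 1 lies far from Control replicate 3.

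Muscle and brown fat markers were checked beside Cox8b. Of 28 striated muscle markers 16 had a mean CPM below 1, and Ckmt2 was at 0 in all libraries. The defining genes Ckm and Myh4 had at most 11 and 4 counts. The 28 summed to 263 and 309 CPM with INK128 and to 130 and 130 CPM in controls. With INK128, most of that sum came from the troponins Tnni3 and Tnnt2, and Tnnt2 was the 1 of 4 tested that was called higher, beside 3.18% over all genes (log2 fold change 3.73 ± 0.27, adjusted p = 0.0464, edgeR). At 7.37 and 10.5 CPM in controls, Tnnt2 had a mean CPM above 10 only through its INK128 libraries. Of the 4 tested, 3 had both INK128 libraries above both controls (34.5% of all genes), and Ryr2 did not. Among those 3, Actn3 also had a mean CPM above 10 only through INK128 (14.9 CPM, against 8.35 in controls), so the filter favoured this order. Over all 28, low genes included, 10 had both INK128 libraries above both controls and 4 had both below. Of 9 brown adipocyte markers, the thermogenic gene Ucp1 was at 0 in all 4 libraries and Adipoq had 2 counts in 1 control. None of the 4 tested was called by edgeR. Dio2 (1.57 ± 0.49), Plin1 (2.08 ± 0.81) and Fabp4 (2.12 ± 0.50) had both INK128 libraries above both controls (34.5% of all genes). Plin1 and Fabp4, with control means of 9.43 and 7.95 CPM, had a mean CPM above 10 only through their INK128 libraries. Cidea, the other gene tested, had 1144 counts in Control replicate 1 and at most 3 elsewhere, and Plin5 and Ppara, below a mean CPM of 10, were lower in both INK128 libraries than in both controls. The part of these markers in Cox8b was not tested. Nearest in profile to Cox8b were Mdk, a growth factor (distance 0.13), Ccdc106 (0.19) and Lbx2 (0.21), with fitted log2 fold changes of 2.34 to 2.60. The fitted value of Cox8b itself was 3.09. At 0.546 and 0.65 CPM in controls, Cox8b lay close to the 0.5 CPM added, which narrowed its change in this measure and affects which genes are nearest. Cox8a was 3724th at 1.83.

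The isoform genes are short, and in this comparison short genes were higher with INK128 in general. Their exon lengths ran from 360 to 1550 bases, against a median of 4468 over all genes tested. Across genes, which are not independent replicates, the log2 fold change and exon length had a Spearman correlation of -0.46. In the 10% of genes with the shortest exons (57 to 1581 bases), which contained the 6 isoform genes of mean CPM above 10, the median log2 fold change was 0.74 and 13.7% of genes were called higher. In the 10% with the longest exons the values were -0.65 and 0.171%.

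With an offset that removed this trend in each library, edgeR called 0 of 11758 genes (without adjustment 1433 higher and 1700 lower at p under 0.05), and the median of the 6 isoform genes fell to 0.22. Cox4i1 was then at 0.60 and Cox6b2 at 1.09, while Cox6a1, Cox6b1 and Cox7a2 were at 0.15, 0.22 and 0.22. Cox8a changed sign, to -0.29, and none of these 6 passed. In the wider fit with its own offset Cox8b was at 2.73, Cox4i2 at 1.15 and Cox7a1 at 0.18. When each library's length curve was removed from the isoform ratios, the difference of Cox8b to Cox8a was 2.54 and that of Cox6b2 to Cox6b1 0.77. The source of the length trend was not tested.

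**Figure D3:**
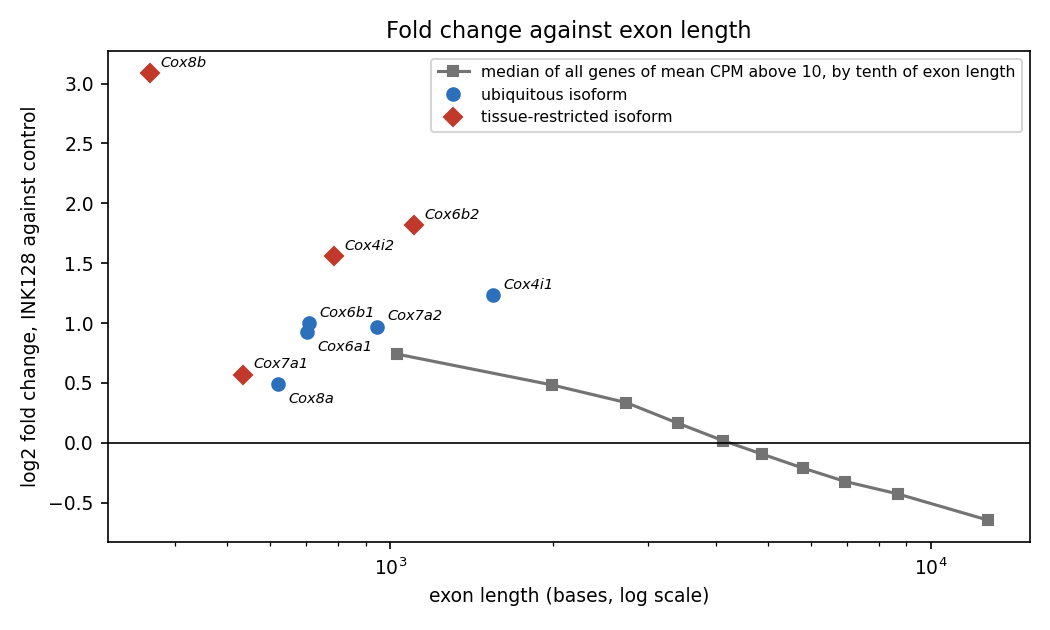
Log2 fold change with INK128 against exon length in bases on a log axis, for the 9 isoform genes with a fit (blue, ubiquitous; red, tissue-restricted) and as the median of all genes with a mean CPM above 10 in 10 classes of exon length (grey). The grey medians fall from 0.74 to -0.65, Cox8b, Cox6b2 and Cox4i2 lie highest above their short end, and Cox7a1 and Cox8a lie below it.

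The nuclear-encoded subunits of complex IV outside these pairs had log2 fold changes of 0.57 to 1.28, beside 0.49 to 1.23 for the ubiquitous isoforms. Of 12 other subunit genes, 10 had a mean CPM above 10, 2 were called higher and 0 lower by edgeR (3.18% and 3.19% over all genes), and 6 higher and 0 lower by DESeq2 (13.6% and 15.1%). Their median log2 fold change was 0.91 (0.19 with the length offset). The 2 were Cox6c (1.28 ± 0.22, adjusted p = 0.0487, edgeR) and Cox7c (1.19 ± 0.19, adjusted p = 0.0464, edgeR), both small membrane subunits. Cox6c stood at 341 and 461 CPM with INK128 and at 169 and 161 CPM in controls. Cox7c stood at 274 and 288 CPM with INK128 against 112 and 134 CPM. The mitochondrially encoded core subunits did not pass, and their libraries overlapped between groups. mt-Co1 had a log2 fold change of -0.38 ± 0.55, mt-Co2 of 0.87 ± 0.50 and mt-Co3 of 0.22 ± 0.54 (adjusted p = 0.637, 0.272 and 0.787, edgeR). Cox7b2 and Cox8c, further tissue-restricted forms of subunits 7b and 8, had 1 count each in the whole table.

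**Figure D4:**
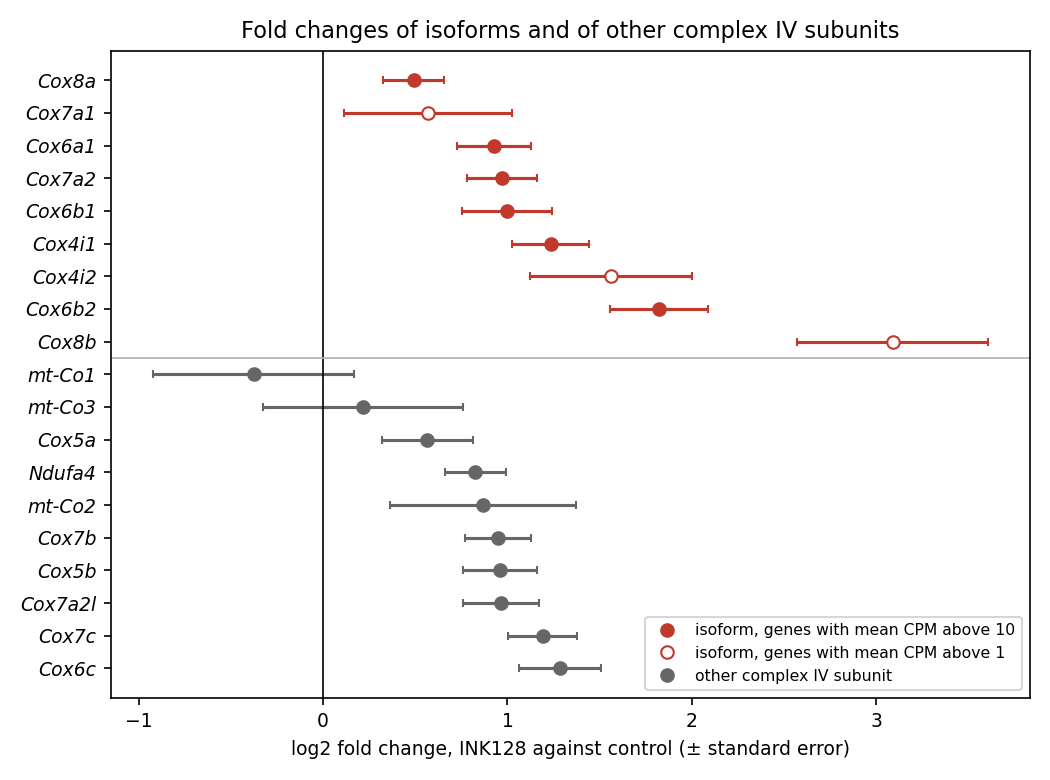
Log2 fold change with INK128 (± standard error, edgeR) of the 9 isoform genes with a fit, above the line, and of the 10 other complex IV subunits with a mean CPM above 10, below it. Open symbols come from the wider fit. Cox8b lies highest at 3.09, the nuclear-encoded subunits lie between 0.49 and 1.82 apart from it, and the mitochondrially encoded mt-Co1 is the one below 0.

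Genes that build complex IV gave 3 higher calls and 1 lower by edgeR among 25 tested of 28, beside 3.18% and 3.19% over all genes, and 9 higher and 2 lower by DESeq2 (13.6% and 15.1%). Their median log2 fold change was 0.62 (0.10 with the length offset). Higher were Cox14 (1.12 ± 0.19, adjusted p = 0.0486, edgeR) and Coa3 (1.04 ± 0.18, adjusted p = 0.0486, edgeR), which act together on newly made COX1. Also higher was Higd1a (1.09 ± 0.18, adjusted p = 0.0476, edgeR), a hypoxia-inducible partner of the complex. Coa5, an assembly factor, was lower (-1.04 ± 0.16, adjusted p = 0.0464, edgeR), at 59.6 and 54.6 CPM with INK128 against 115 and 120 CPM.

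Genes known to control the isoforms or nuclear genes of the respiratory chain were also followed. Of 18 listed regulators 14 were tested by edgeR and 0 were called in either direction, and DESeq2 called 0 higher and 4 lower, beside 13.6% and 15.1% of all genes. Their median log2 fold change was -0.33 (-0.14 with the length offset). Lower in both INK128 libraries than in both controls were 9 of the 14, an order that 34% of all genes showed. Among the 14, the largest changes belonged to Epas1, the hypoxia factor HIF-2α (-0.95 ± 0.21, adjusted p = 0.0593, edgeR), Chchd10, which with Chchd2 acts on the Cox4i2 promoter (-0.84 ± 0.44, adjusted p = 0.235, edgeR), and the muscle factor Mef2a (-0.80 ± 0.18, adjusted p = 0.0597, edgeR). Chchd10 stood at 232 CPM in Control replicate 1, against 90.4 to 96.3 CPM in the other 3 libraries. The other 4 regulators were tested in the wider edgeR fit and not called, with log2 fold changes of -2.01 for the coactivator Ppargc1a (adjusted p = 0.0669, edgeR), -1.42 for Esrrg, -0.96 for Ppargc1b and 1.46 for Esrrb.

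Tissue-restricted and common forms of other mitochondrial proteins gave 0 calls in either direction among the 9 tested of 13 by edgeR, and 3 higher and 0 lower by DESeq2 (13.6% and 15.1%). The median was 0.49 and -0.03 with the length offset. Among the 9, the largest values were those of Atp5g2 (0.98 ± 0.18, adjusted p = 0.0507, edgeR) and Atp5g1 (0.79 ± 0.19, adjusted p = 0.0626, edgeR), both encoding subunit c of ATP synthase. Slc25a4, the heart and muscle form of the ADP/ATP carrier, had 0.76 ± 0.18 (adjusted p = 0.0646, edgeR). In the wider fit the testis form of lactate dehydrogenase, Ldhc (1.30, adjusted p = 0.492, edgeR), and the germ cell form of the ADP/ATP carrier, Slc25a31 (1.13, adjusted p = 0.534, edgeR), had larger values that did not pass.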

How the data were processed

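RNA-seq of 4 rOvaries was analysed, 2 INK128-treated and 2 Control, grouped by the treatment labels. According to the methods and the submitters' processing notes, reads were trimmed with Trimmomatic, aligned to mm10 with HISAT2 and counted with featureCounts. Raw counts per gene symbol, not normalized or pooled, were deposited by the authors. Strand setting and tool versions were not given in the sources used here.

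Printed CPM were computed with TMM factors in edgeR 4.0.16 (R 4.3.3), and the filters on mean CPM used unscaled library totals. The test was the quasi-likelihood F-test of edgeR with Benjamini-Hochberg adjustment, with calls at an adjusted p under 0.05 and a change of more than 1.5-fold, in genes with a mean CPM above 10, following the expression level of the study's methods, and above 1 for 3 members. SE was the log2 fold change divided by the root of F. Isoform ratios used counts with 0.5 added, and were compared by an exact two-sided permutation test. Library totals lay between 19130209 and 23029089 counts, and a floor of 3 counts corresponded to 0.13 to 0.165 CPM. Shares have exact (Clopper-Pearson) 95% intervals that cover counting error only. Exon lengths and positions came from GENCODE M21, which matched 53447 of 54021 symbols.

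Members and gene lists were chosen with earlier results of these data known. Named were all members and, in each pathway list, the called genes or else the 3 largest changes. In marker lists, at most 3 of the highest genes were named, besides defining markers near 0. Other markers were chosen after their values were seen (Cnn1, Rgs5, Pdgfrb, Abcc9, Notch3, Actn3, Cidea, Plin5, Ppara, Ryr2), as were the regulators and paralogs named from the wider fit. The 3 genes nearest in profile to each tissue-restricted member with a mean CPM above 1 were also named. Alternatives were DESeq2 1.42.0, limma 3.58.1 (voom), other normalizations, filters, thresholds, pseudocounts and lengths, exon length offsets, and leaving out each library.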

Additional observations from a re-analysis of the deposited data

How the results depend on the processing

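Calls depended on the test, the filter and single libraries. Against 374 genes called higher, 375 lower and 2 isoform genes called in the main comparison, DESeq2 gave 1595, 1772 and 5, limma voom 0, 0 and 0 (without adjustment 2151 higher and 1828 lower at p under 0.05), a mean CPM above 1 gave 0, 0 and 0, CPM above 10 in at least 2 libraries 728, 834 and 4, at least 1 count 1152, 1953 and 5, and exon length offsets 0, 0 and 0. Library totals gave 627 lower and moved the median of all genes to -0.16. The counts were 0 without either INK128 library, 2664, 2723 and 5 without Control replicate 1, and 2493, 2518 and 5 without Control replicate 3, so that leave-one-out ranges were 0 to 2664 higher, 0 to 2723 lower and 0 to 5 isoform genes. The library left alone in a group was there assumed to vary like the other group. Under the 12 alternatives Cox4i1 and Cox6b2 were called in 7 each, with log2 fold changes of 0.60 to 1.36 and 1.09 to 1.98. Cox8a reversed to -0.29 with exon length offsets (adjusted p = 0.342, edgeR), and among these genes and settings no other log2 fold change changed sign. The Cox8b to Cox8a difference was 2.30 with 3 counts added and 1.81 with 0.5 CPM added, both larger additions relative to the low Cox8b counts. No paired analysis was possible because the groups share only replicate number 1. Depth limits Cox6a2, with 6 to 30 counts.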
